A study of Mus musculus with 4 samples.

Results

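The mir-106b cluster (Mir106b, Mir93 and Mir25) and the mir-106a cluster (Mir106a, Mir18b, Mir20b and Mir363) are the mouse paralogues of the mir-17 to mir-92a cluster. Their 7 hairpins were taken by gene symbol from the 2202 miRNA hairpins of the GENCODE vM21 annotation (build GRCm38). The rule itself uses no measured value, but it was set with earlier results of these data known. The data are small RNA libraries of mouse fetal livers, 2 wildtype and 2 Ago2 catalytic dead (Ago2 CD), and the series' design text calls the libraries of a genotype biological replicates. Neither group carries any other allele or agent in the labels, and the age of the embryos, the strain and any pooling are not given in the sources used here. Among the Argonaute proteins, which hold miRNAs, Ago2 can cleave a paired target RNA, and the catalytic dead form has lost this activity.

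A miRNA gene is transcribed as a hairpin, which Drosha and Dicer cut to a short duplex. One strand of the duplex, named 5p or 3p after its side of the hairpin, is loaded into an Argonaute protein and directs it to mRNAs through its seed, bases 2 to 8 of the miRNA. The 3 paralogous clusters arose by duplication and encode overlapping sets of seeds. The cluster on chromosome 14 is known for promoting proliferation and survival of blood progenitors and of many tumours, and the mir-106b cluster shares targets with it, among them cell cycle inhibitors.

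The mir-106b cluster lies within an intron of Mcm7, which encodes a subunit of the replicative DNA helicase. On chromosome 5 of GRCm38, minus strand, Mir106b occupies 138165737 to 138165818, Mir93 138165523 to 138165610 and Mir25 138165321 to 138165404. All 3 hairpins are in intron 13 of the transcript Mcm7-201 and together span 498 nt, and exons of other Mcm7 transcripts reach into Mir93 and Mir25. The mir-106a cluster is on the minus strand of the X chromosome, where Mir106a (52742503 to 52742567), Mir18b (52742331 to 52742413), Mir20b (52742113 to 52742192) and Mir363 (52741693 to 52741767) lie within 875 nt. Mir106a shares 5 bases with an exon of the noncoding gene Kis2, and the other 3 hairpins overlap no exon of another gene. Between Mir20b and Mir363 lie Mir19b-2 and Mir92-2, whose 3p arms have the same sequence as those of the chromosome 14 cluster.

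The mature sequences below, from RefSeq (GRCm38.p6), are those on which the comparisons turn. Capitals mark the seed.
miR-106b-5p: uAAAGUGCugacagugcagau
miR-93-5p: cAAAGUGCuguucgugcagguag
miR-106a-5p: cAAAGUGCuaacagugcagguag
miR-20b-5p: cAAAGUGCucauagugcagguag
miR-17-5p: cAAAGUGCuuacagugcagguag
miR-20a-5p: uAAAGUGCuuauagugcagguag
miR-18b-5p: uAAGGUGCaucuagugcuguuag
miR-18a-5p: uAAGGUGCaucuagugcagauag
miR-25-3p: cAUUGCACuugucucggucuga
miR-363-3p: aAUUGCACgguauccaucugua
miR-92a-3p: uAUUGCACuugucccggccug
The guide strands of both clusters thus fall into 3 seed groups. AAAGUGC is shared by miR-106b-5p, miR-93-5p, miR-106a-5p and miR-20b-5p with miR-17-5p and miR-20a-5p. AAGGUGC belongs to miR-18b-5p and miR-18a-5p, and AUUGCAC to miR-25-3p and miR-363-3p, which they hold in common with miR-92a-3p.

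The libraries held 13138065 to 21875540 reads, of which 7814124 to 14423028 were of 18 to 27 nt and assigned to a miRNA arm. The files fall into 2 kinds by their longest read. It is 50 nt for the first wildtype and the second Ago2 CD library, and 46 nt for the second wildtype and the first Ago2 CD library, so that each kind has 1 library per genotype. Over 584 arms with enough reads, edgeR's quasi-likelihood test called 2 between genotypes at a Benjamini-Hochberg adjusted p under 0.05, which is 0.342%. Both belong to the erythroid marker list, 1 higher and 1 lower in Ago2 CD. The markers of erythroid cells (miR-451a, miR-144, miR-486) were the most abundant of the lists. They summed to 1122350 and 585817 reads per 1000000 in wildtype and to 248613 and 332750 in Ago2 CD. These values are CPM, computed with TMM-scaled library sizes, so that a sum can pass 1000000. The 6 arms of this list had log2 fold changes of -9.18 to 5.21. Hepatocyte markers (miR-122, miR-192) summed to 23791 to 71113 CPM and myeloid and lymphoid markers to 60319 to 71124 CPM. Muscle markers summed to 706 CPM in wildtype replicate 1 and to 13.3 to 34.7 CPM in the other libraries. Neuron markers summed to 269 and 316 CPM in the 46 nt libraries and to 13.1 and 16.5 CPM in the 50 nt libraries. In RNA from whole tissue, fewer cells of a type and less RNA per cell cannot be told apart. Below, values for the 4 libraries are given in the order wildtype replicates 1 and 2, then Ago2 CD replicates 1 and 2, so that the first and the last are from the 50 nt libraries.

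All 14 arms of the 7 hairpins had reads in at least 1 library, and 11 passed the filter on low counts. None of the 11 was called between genotypes by edgeR, against the 0.342% called over all arms, and none had an unadjusted p under 0.05. DESeq2 called none either. Their log2 fold changes, Ago2 CD over wildtype, ran from -0.41 to 0.46 with a median of 0.06, beside a median of 0.04 over all 584 arms. The adjusted p was 0.997 for each of them, and in none of the 11 did the 2 mutant libraries lie on 1 side of both wildtype libraries, which 29.6% of all arms tested did.

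The most abundant of all 14 arms was miR-25-3p, the guide strand of Mir25. It was counted 51298, 39538, 90119 and 107290 times, which is 8583, 4468, 4526 and 11286 CPM. The 2 high values and the 2 low values each come from 1 library of each genotype, so the genotypes overlapped. Its log2 fold change was 0.28 ± 0.60 (SE, n = 2 per genotype), and it was 0.02 between the 46 nt libraries and 0.40 between the 50 nt libraries.

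The seed AAAGUGC is carried in this cluster by miR-93-5p and miR-106b-5p. Levels of miR-93-5p were 2305, 3878, 4287 and 2654 CPM, high in the 46 nt libraries in both genotypes, with a log2 fold change of 0.17 ± 0.43 (SE, n = 2 per genotype). For miR-106b-5p they were 2717, 3134, 3236 and 2779 CPM. As a ratio of highest to lowest, this was the narrowest range among the guide strands of either cluster, and the log2 fold change was 0.04 ± 0.27 (SE, n = 2 per genotype).

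The strands opposite to these guides were less abundant. miR-106b-3p reached 149, 104, 88.4 and 136 CPM, miR-93-3p 33.1, 25.3, 18.2 and 25.9 CPM, and miR-25-5p 3.85, 2.83, 2.11 and 3.05 CPM. All 3 were highest in wildtype replicate 1 and lowest in Ago2 CD replicate 1. The fold change of miR-93-3p, -0.41 ± 0.39 (SE, n = 2 per genotype) on the log2 scale, was the lowest of the 11 arms, and it was -0.47 and -0.35 within the 46 nt and the 50 nt libraries.

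**Figure D1:**
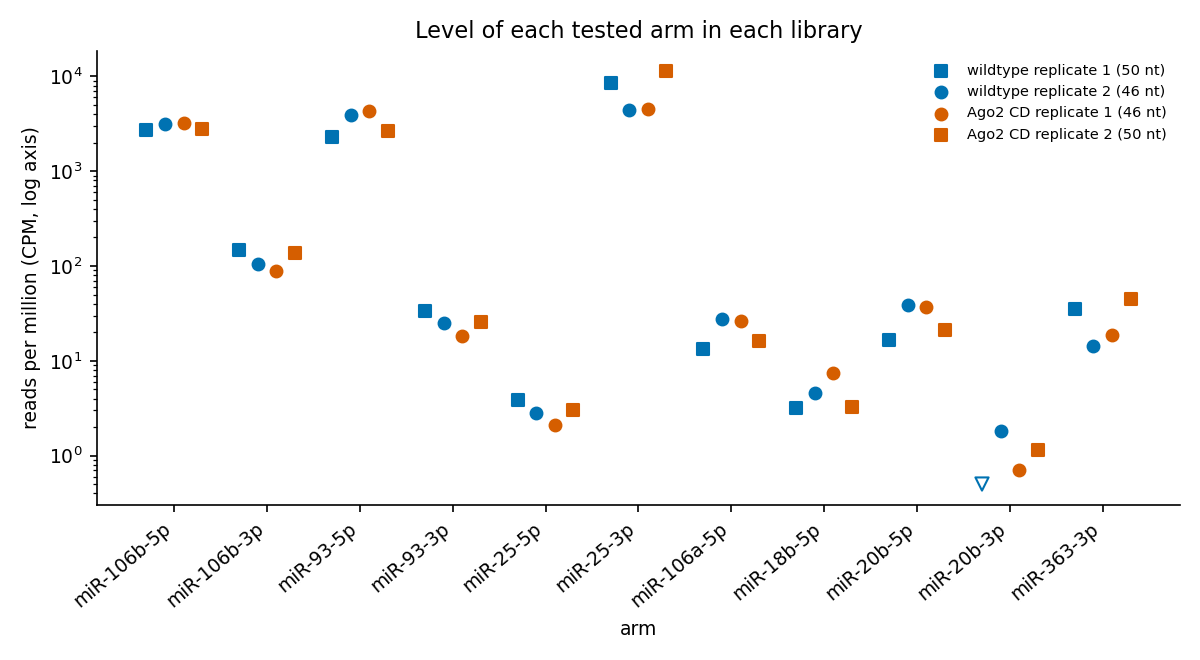
Level of the 11 arms that passed the filter, in CPM on a log axis, with 1 point per library (blue for wildtype, orange for Ago2 CD, squares for 50 nt and circles for 46 nt libraries). The open triangle marks the limit of 3 reads for miR-20b-3p, which had 0 reads in wildtype replicate 1, and for most arms the squares of both genotypes lie together, apart from the circles.

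The X-linked members were represented by few reads. The 5p arm of Mir20b, its most abundant AAAGUGC miRNA, was counted 98, 344, 732 and 199 times, or 16.4, 38.9, 36.8 and 20.9 CPM. The 5p arm of Mir106a followed with 79, 242, 521 and 153 reads, or 13.2, 27.3, 26.2 and 16.1 CPM. Both were high in the 46 nt libraries and low in the 50 nt libraries whatever the genotype, with log2 fold changes of 0.06 ± 0.59 for miR-20b-5p and 0.06 ± 0.53 for miR-106a-5p (SE, n = 2 per genotype). miR-363-3p, the AUUGCAC member, had 209, 128, 375 and 429 reads, or 34.97, 14.5, 18.8 and 45.1 CPM, and was high in the 50 nt libraries instead. Its log2 fold change was 0.37 ± 0.68 (SE, n = 2 per genotype).

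The remaining arms of the cluster had fewer reads. miR-18b-5p had 19, 41, 149 and 31 reads (3.18, 4.63, 7.48 and 3.26 CPM), and its log2 fold change of 0.46 ± 0.56 (SE, n = 2 per genotype) was the highest of the 11. miR-20b-3p had 0, 16, 14 and 11 reads, and the 0 in wildtype replicate 1 allows up to 0.502 CPM. The other 3 arms did not pass the filter, namely miR-106a-3p with 3, 0, 4 and 2 reads, miR-18b-3p with 4, 3, 15 and 8, and miR-363-5p with 1, 2, 7 and 2. For these no difference between genotypes was detectable at this depth.

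Summed over their arms, the mir-106b cluster had 82425, 102758, 242079 and 160503 reads and the mir-106a cluster 413, 776, 1817 and 835. The intronic cluster thus exceeded the X-linked cluster 199.6-fold, 132.4-fold, 133.2-fold and 192.2-fold. On the log2 scale wildtype had a ratio of 7.34 ± 0.42 and Ago2 CD one of 7.32 ± 0.37 (SD, n = 2 each), and the difference of -0.02 was smaller than the spread within a genotype (exact permutation test, two-sided, p = 1, with 0.333 as the smallest p that 2 libraries against 2 allow). Within the 46 nt libraries the difference was 0.01 and within the 50 nt libraries -0.05.

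The makeup of each cluster differed between the kinds of library rather than between the genotypes. miR-25-3p supplied 62.2% and 66.8% of the mir-106b cluster's reads in the 50 nt libraries, and 38.5% and 37.2% in the 46 nt libraries. Per read of miR-93-5p there were 3.72, 1.15, 1.06 and 4.25 reads of miR-25-3p. In the mir-106a cluster, miR-363-3p gave 50.6% and 51.4% of reads in the 50 nt libraries and 16.5% and 20.6% in the 46 nt libraries. These shares of hairpins that lie in 1 cluster overlapped between genotypes and were apart between kinds of library.

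**Figure D2:**
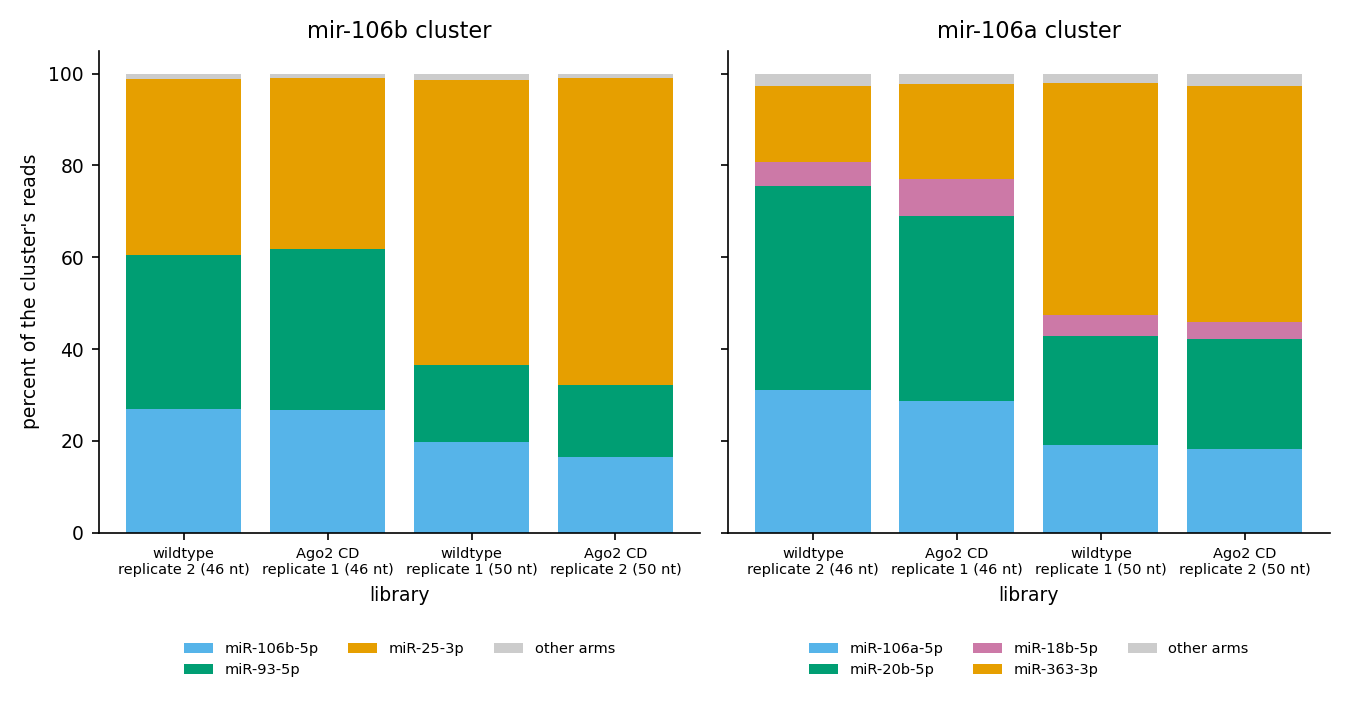
Share of each cluster's reads, in percent, taken by its guide strands in each library, with the 46 nt libraries on the left of each panel and the 50 nt libraries on the right. The AUUGCAC miRNAs (orange; miR-25-3p on the left, miR-363-3p on the right) fill 37.2% and 16.5% of reads at the least and 66.8% and 51.4% at the most, and the 2 genotypes of a kind are alike.

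The difference between kinds of library was therefore estimated in an edgeR model with genotype and longest read as terms. It called 6 of the 11 member arms, beside 37.7% of all 584 arms. miR-25-3p was higher in the 50 nt libraries by 1.13 ± 0.15 on the log2 scale, or 2.19-fold (adjusted p = 0.0028), miR-363-3p by 1.27 ± 0.22 (adjusted p = 0.0070) and miR-106b-3p by 0.57 ± 0.16 (adjusted p = 0.035). The 3 arms with the seed AAAGUGC that were called were lower there. The log2 differences of miR-20b-5p, miR-106a-5p and miR-93-5p were -1.02 ± 0.24, -0.87 ± 0.24 and -0.72 ± 0.12 (SE), with adjusted p of 0.017, 0.031 and 0.0062. The difference of miR-18b-5p, -0.91 ± 0.30, had an adjusted p of 0.052, and that of miR-106b-5p, -0.21 ± 0.12, one of 0.20. In 10 of the 11 arms both libraries of 1 kind lay beyond both of the other, as they did in 60.8% of all arms, and the exception was miR-20b-3p. With both terms in the model, the test for genotype again called none of the 11.

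**Figure D3:**
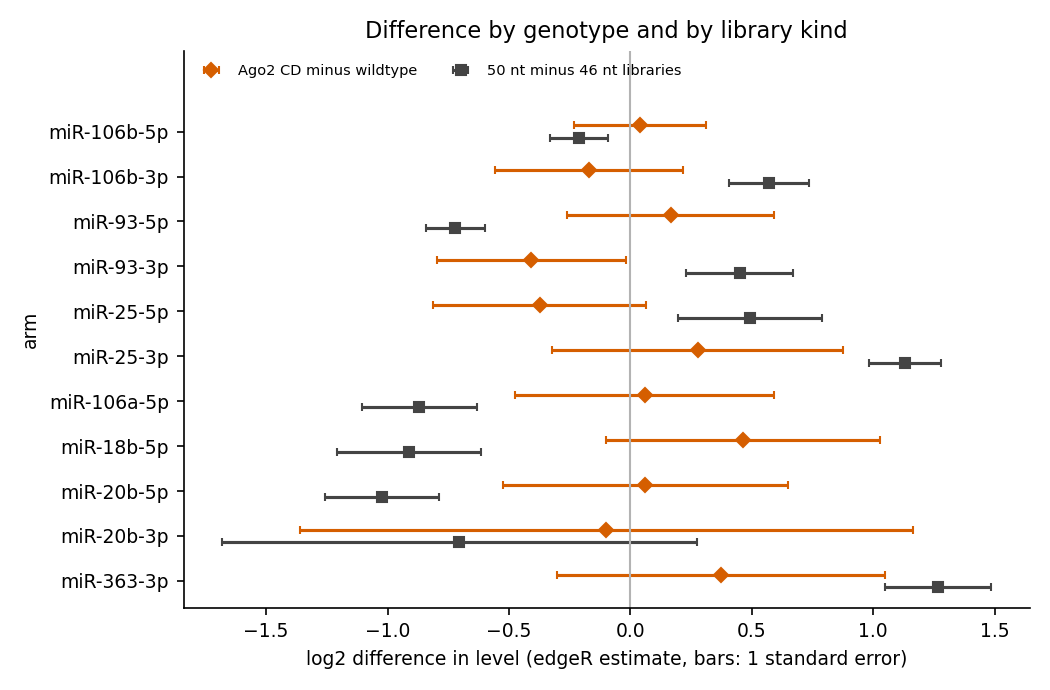
Log2 difference in level of each tested arm between genotypes (orange diamonds, Ago2 CD minus wildtype) and between kinds of library (grey squares, 50 nt minus 46 nt), with bars of 1 standard error from edgeR. Every orange bar except that of miR-93-3p crosses 0, while the squares of miR-25-3p and miR-363-3p lie at 1.13 and 1.27 and those of the AAAGUGC miRNAs at or below -0.21.

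The chromosome 14 paralogues were compared in the same way. Of 12 tested arms of Mir17, Mir18, Mir19a, Mir20a, Mir19b-1 and Mir92-1, edgeR called none between genotypes and none had an unadjusted p under 0.05; the median log2 fold change was 0.04. Between kinds of library, 6 were called higher and 3 lower in the 50 nt libraries, beside 111 higher and 109 lower of all 584 arms. The 6 were miR-18a-3p, both arms of miR-19a, miR-19b-3p, miR-20a-3p and miR-92a-3p, and the 3 were 5p arms. miR-92a-3p, with the seed AUUGCAC, was higher by 1.22 (log2, adjusted p = 0.0028), and the AAAGUGC miRNAs miR-20a-5p and miR-17-5p were lower, with log2 differences of -0.64 and -0.41 (adjusted p = 0.010 and 0.042). The AAGGUGC miRNA miR-18a-5p was lower as well, at -0.47 (adjusted p = 0.025).

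Within the seed group AUUGCAC, shares moved less than levels. All AUUGCAC arms together amounted to 22634, 11506, 11124 and 27575 CPM. Of these, miR-25-3p made up 37.9%, 38.8%, 40.7% and 40.9%, miR-92a-3p 49.9%, 49.4%, 45.8% and 50.5%, and miR-363-3p 0.154%, 0.126%, 0.169% and 0.164%. The rest was almost all miR-32-5p, which is encoded outside the 3 clusters. The AAAGUGC arms amounted to 12438, 17936, 18452 and 13096 CPM. miR-106b-5p held 21.8%, 17.5%, 17.5% and 21.2% of that sum and miR-93-5p 18.5%, 21.6%, 23.2% and 20.3%, beside 25.3% to 28.1% for miR-17-5p and 30.1% to 33.9% for miR-20a-5p. miR-20b-5p and miR-106a-5p held 0.132% to 0.217% and 0.106% to 0.152%. In fetal liver of either genotype, the mir-106b cluster thus gave AAAGUGC and AUUGCAC reads of the same order as the chromosome 14 cluster. The X-linked members gave few, but miR-92a-3p can be read from chromosome 14 and from the X-linked Mir92-2. How its reads divide between these 2 loci was not tested.

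The X-linked 5p arms of Mir106a, Mir20b and Mir18b each have a near-identical partner on chromosome 14. Of the reads of miR-106a-5p and miR-17-5p together, miR-106a-5p accounted for 0.384%, 0.569%, 0.558% and 0.436%. For miR-20b-5p with miR-20a-5p the share was 0.412%, 0.635%, 0.589% and 0.527%, and for miR-18b-5p with miR-18a-5p 0.149%, 0.160%, 0.2398% and 0.146%. All 12 of these shares were under 1%. By genotype, wildtype had a miR-106a-5p share of 0.477% ± 0.131 and Ago2 CD one of 0.497% ± 0.087 (SD, n = 2 each). The 95% Clopper-Pearson interval was 0.304% to 0.479% in wildtype replicate 1 and 0.4997% to 0.645% in wildtype replicate 2, so that 2 libraries of 1 genotype differed beyond counting error. miR-363-3p, which has the same seed as miR-25-3p but differs in the rest of its sequence, was 0.323% to 0.414% of the reads of that pair.

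The hairpins Mir19b-2 and Mir92-2 of the X-linked cluster can be followed only by their 5p arms. miR-19b-2-5p had 0, 4, 1 and 1 reads, beside 103, 201, 481 and 285 of miR-19b-1-5p from chromosome 14. miR-92a-2-5p had 0, 0, 0 and 1, beside 75, 113, 162 and 170 of miR-92a-1-5p. Reads of the shared miR-19b-3p and miR-92a-3p cannot be assigned to either locus and were not counted for the X-linked cluster.

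Since 1 misread base would turn miR-17-5p into miR-106a-5p, the frequency of other single-base changes in miR-17-5p was counted beside it. The 2 sequences differ over 23 bases by T10A alone (miR-17-5p first, counted from its 5′ end). Among reads of 20 to 23 nt that equal miR-17-5p but for 1 base, T10A occurred 68, 191, 403 and 130 times. The same change at the T of position 9 (T9A) occurred 1, 3, 7 and 6 times and at position 15 (T15A) 3, 4, 5 and 9 times, and T10C occurred 11, 23, 28 and 20 times. Near the 3′ end, T21A occurred 19, 27, 56 and 14 times. T6A, with 32, 1, 6 and 55 reads, and T21C, with 1092, 10, 36 and 2296, were frequent in the 50 nt libraries and rare in the 46 nt libraries. Position 21 directly follows a read of 20 nt, so such a read with 1 added A or C is counted as T21A or T21C. T10A thus exceeded the other T-to-A changes at each of these positions in every library.

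miR-18b-5p differs from miR-18a-5p by A18T and A20T. Reads of 20 to 23 nt from the main start with both changes were counted 17, 30, 112 and 27 times, against 11216, 21362, 52172 and 18781 such reads of miR-18a-5p. Reads with A18T alone came to 40, 60, 237 and 61 and those with A20T alone to 82, 94, 264 and 102, which is more than those with both. A read of 16 or 17 nt cannot tell the 2 apart, and 30, 57, 67 and 67 such reads lay on both hairpins and were left out. How many of the miR-18b-5p reads are misread miR-18a-5p was not tested. miR-20b-5p is separated from miR-20a-5p by T1C and T10C, and from miR-17-5p by T10C and C12T.

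The choice of strand differed among the 7 hairpins. Mir106b, Mir93, Mir106a, Mir18b and Mir20b gave mostly 5p reads and Mir25 and Mir363 mostly 3p reads, in every library. The 3p arm held 5.20%, 3.20%, 2.66% and 4.66% of the reads of Mir106b and 1.42%, 0.648%, 0.422% and 0.966% of those of Mir93. On Mir25 it held 99.94% to 99.97% and on Mir363 98.2% to 99.5%. The ratio of 3p to 5p reads was tested with limma for 226 hairpins, of which 2 passed the threshold (0.885%), and 6 of the 7 members could be tested. None was called, and none had an unadjusted p under 0.05. The change was -0.22 ± 0.61 for Mir106b, -0.59 ± 0.72 for Mir93 and 0.59 ± 0.57 for Mir25 on the log2 scale (SE, n = 2 per genotype, adjusted p = 0.999 each by limma). The 3p shares of Mir106b and Mir93 were high in the 50 nt libraries in both genotypes.

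Long reads and reads across the midpoint of a hairpin were nearly lacking. Shorter fragments on 1 side of the midpoint would be counted with an arm and were not sought. Reads over 27 nt on the 7 hairpins numbered 1, 1, 4 and 0, among 83556, 110717, 259423 and 162885 reads in all, and 1, 2, 3 and 2 reads spanned the midpoint of a hairpin.

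The most frequent read of miR-25-3p was its RefSeq mature sequence of 22 nt, and several of its other forms differed between the kinds of library. The reads that differed most are shown with their bases 2 to 8 in capitals.
miR-25-3p, 22 nt: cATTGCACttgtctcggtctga
miR-25-3p, 19 nt: cATTGCACttgtctcggtc
miR-25-3p, 17 nt: cATTGCACttgtctcgg
miR-25-3p, start 3 nt further 3′: tGCACTTGtctcggtctga
miR-93-5p, start 3 nt further 3′: aGTGCTGTtcgtgcaggtag
miR-106b-5p, 21 nt: tAAAGTGCtgacagtgcagat
miR-106b-5p, 22 nt: tAAAGTGCtgacagtgcagata
The 22 nt read of miR-25-3p was counted 38917, 30740, 70086 and 78406 times, the 19 nt read 8281, 186, 401 and 19907 times, and the 17 nt read 12, 5688, 12145 and 25 times. The 19 nt form was thus common in the 50 nt libraries alone and the 17 nt form in the 46 nt libraries alone, with 1 library of each genotype on either side. The 19 nt form ends in an encoded C, so a read of 18 nt with 1 added C is counted as this form. How many of its reads arose in this way was not tested. Since an arm was counted from 18 nt, the level of miR-25-3p above leaves the 17 nt form out. Of the untailed miR-25-3p reads of any length, 75.7%, 67.0%, 67.4% and 72.8% were of 22 nt.

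Of the AAAGUGC miRNAs, miR-93-5p, miR-106b-5p, miR-20b-5p and miR-106a-5p also differed in length. Each had a larger share of its 22 or 23 nt form in the 46 nt libraries. The 23 nt form held 41.9%, 60.2%, 61.2% and 44.0% of miR-93-5p reads and the 20 nt form 14.8%, 6.16%, 5.76% and 15.2%. For miR-106b-5p, 59.6%, 37.5%, 40.3% and 61.0% were of 21 nt and 22.7%, 38.2%, 36.3% and 21.6% of 22 nt. The rarer miR-20b-5p followed, with 31.7%, 54.9%, 52.8% and 36.4% of its reads at 23 nt. For miR-106a-5p, also rare, the 23 nt form held 46.9%, 58.3%, 53.1% and 36.9%. Other forms went against a shift to longer reads. The 24 nt form of miR-93-5p was smaller in the 46 nt libraries (10.7%, 6.62%, 5.17% and 9.16%). The 18 nt form was larger there, with 0.742%, 2.98%, 3.56% and 0.851% of miR-93-5p reads and 1.09%, 4.30%, 4.28% and 1.14% of miR-106b-5p reads. For miR-20b-5p it held 2.97%, 7.71%, 7.10% and 0.478%.

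The mean length of the reads of 18 to 27 nt was tested with limma for 254 arms, of which 1 passed the threshold (0.394%). The 4 members with enough reads were not called and had no unadjusted p under 0.05. miR-25-3p averaged 21.40, 21.57, 21.57 and 21.32 nt, with a difference between genotypes of -0.04 ± 0.14 nt (SE, n = 2 per genotype). miR-93-5p averaged 22.14, 22.36, 22.33 and 22.14 nt and differed by -0.02 ± 0.14 nt. The differences of miR-106b-5p and miR-106b-3p were -0.02 ± 0.09 and 0.02 ± 0.10 nt.

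**Figure D4:**
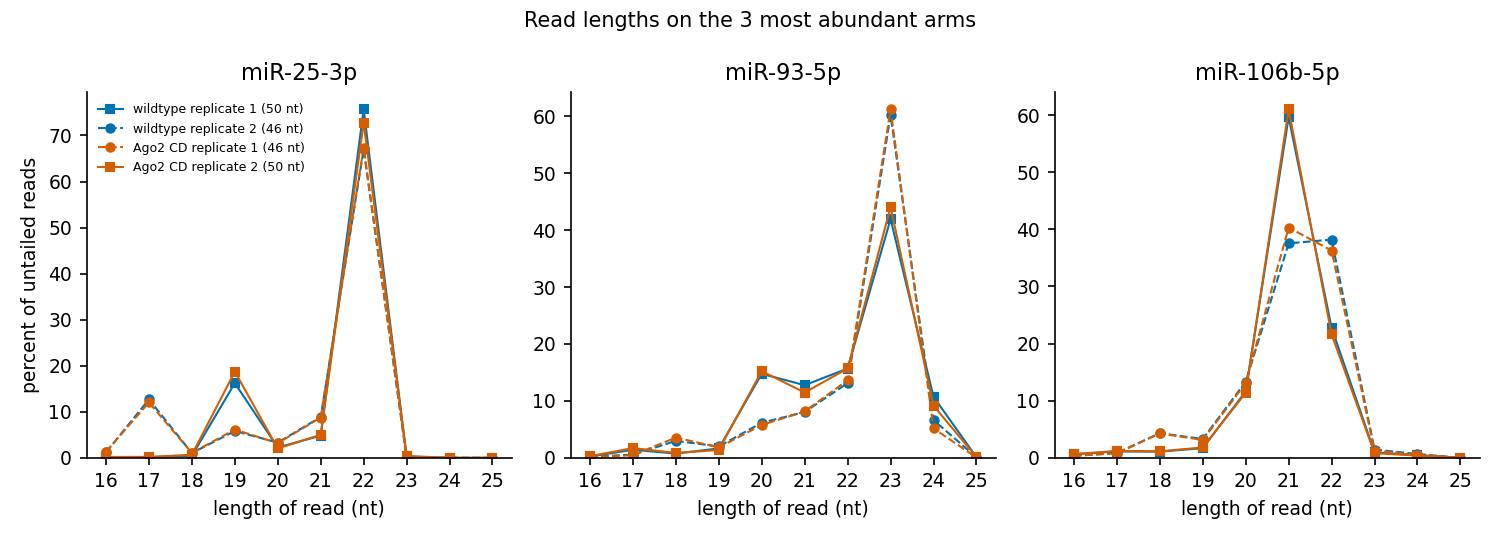
Percent of the untailed reads of miR-25-3p, miR-93-5p and miR-106b-5p at each length from 16 to 25 nt, with 1 line per library (blue for wildtype, orange for Ago2 CD, solid with squares for 50 nt and dashed with circles for 46 nt libraries). Lines of 1 kind of library coincide across genotypes, and the 17 nt peak of miR-25-3p (12.7% and 12.03%) is seen in the dashed lines and the 19 nt peak (16.2% and 18.7%) in the solid ones.

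The 5′ end decides the seed, and most reads of the guide strands began at 1 position. The main start held 95.0%, 95.3%, 94.9% and 94.2% of miR-106b-5p reads and 96.4%, 91.4%, 91.6% and 95.8% of miR-93-5p reads. For miR-25-3p it held 98.2% and 97.2% in the 50 nt libraries and 85.5% and 85.0% in the 46 nt libraries. The difference lay in starts 1 nt further 3′ (1.41%, 6.10%, 6.13% and 2.03%) and 3 nt further 3′ (0.101%, 6.46%, 6.84% and 0.206%). A start 3 nt further 3′ gives miR-25-3p the bases GCACUUG in place of the seed AUUGCAC. The same start was seen in 0.290%, 3.69%, 3.76% and 0.325% of miR-93-5p reads, but in 0.277% to 0.352% of miR-106b-5p reads in every library.

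miR-363-3p was the least uniform guide strand, with 70.8%, 63.3%, 66.9% and 70.2% of reads at its main start and 24.9%, 32.8%, 27.2% and 23.5% at the next base. The share of reads off the main start was tested with limma in 254 arms, and 0 of them (0%) were called and 3 had an unadjusted p under 0.05. On the log2 ratio scale the change between genotypes was 0.17 ± 0.27 for miR-106b-5p, 0.08 ± 0.70 for miR-93-5p, 0.34 ± 1.59 for miR-25-3p and 0.22 ± 0.52 for miR-106b-3p (SE, n = 2 per genotype, adjusted p = 0.999 each by limma). For miR-25-3p, with the largest error, both genotypes hold 1 high and 1 low library.

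Tailed reads, in which 1 to 3 bases at the 3′ end do not match the hairpin, made up 16.9%, 6.83%, 8.73% and 22.1% of all arm reads. In cells, terminal nucleotidyl transferases add bases to miRNAs, mostly U (read as T) or A. The origin of the tails counted here was not tested. Among members, miR-363-3p had the largest tailed share of those with at least 200 tailed and untailed reads in every library, at 47.9%, 43.1%, 40.9% and 45.5%. A single added T accounted for 30.4%, 35.1%, 35.3% and 25.8% of its reads. miR-106a-5p came next for T, with 17.9%, 15.5%, 13.3% and 17.6% of only 117, 323, 676 and 244 reads, while miR-106b-5p, miR-93-5p, miR-25-3p and miR-20b-5p had 2.70% to 4.67%. A single added A was found on 8.21%, 8.07%, 6.67% and 5.06% of miR-20b-5p reads and on 6.84%, 6.81%, 6.07% and 5.74% of miR-106a-5p reads, but on 0% to 0.315% of miR-363-3p reads. These shares depend in part on the hairpins, since the base after the 23 nt form is T in Mir93 and Mir20b, where an added T cannot be seen, and C in Mir106a. In Mir363 the base after the 21 nt form and after the 22 nt form is A, so an added A on these main forms cannot be seen. The same holds for the 21 nt form of miR-106b-5p.

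An added C was a mark of the 50 nt libraries. It stood on 10.95% and 14.4% of miR-106b-5p reads there and on 0.130% and 0.119% in the 46 nt libraries. For miR-93-5p it was on 6.67% and 7.94% against 0.115% and 0.123%, and for miR-25-3p on 1.09% and 1.19% against 0.0461% and 0.0299%. Tails counted for miR-18b-5p were set aside. Most of them were of 2 or 3 bases (46.5% to 57.8% of all its reads), and a miR-18a-5p read with A18T alone is counted among them.

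The tailed share was tested with limma on log2 ratios for 277 arms, of which 0 (0%) were called and 0 had an unadjusted p under 0.05. Of the members, 6 could be tested. The change between genotypes was 0.06 ± 0.75 for miR-106b-5p, -0.13 ± 0.57 for miR-93-5p, -0.33 ± 0.42 for miR-25-3p and -0.14 ± 0.44 for miR-363-3p (SE, n = 2 per genotype, adjusted p = 0.999 each by limma). Tailed reads of miR-25-3p made up 8.96%, 8.89%, 7.13% and 7.38%, so that both Ago2 CD libraries lay below both wildtype libraries. For miR-93-3p, with 27.2%, 23.5%, 16.01% and 20.1% of reads tailed, the change was -0.63 ± 0.45 (SE, n = 2 per genotype, adjusted p = 0.999 by limma). Tailed shares of these 2 of the 6 members did not overlap between genotypes, beside 6.86% of the 277 arms. In a limma model with longest read as a further term, miR-93-3p had an adjusted p of 0.155. It was the only one of the 6 members with an unadjusted p under 0.05, beside 13 of the 277 arms. When only single bases other than C were counted as tails in that model, 3 members had an unadjusted p under 0.05. So had 35 of all 263 arms then tested, and the median log2 change of these 263 was -0.09. The 3 members had log2 changes of -0.57 for miR-106b-3p, -0.41 for miR-93-3p and -0.38 for miR-25-3p (adjusted p = 0.364 each by limma).

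**Figure D5:**
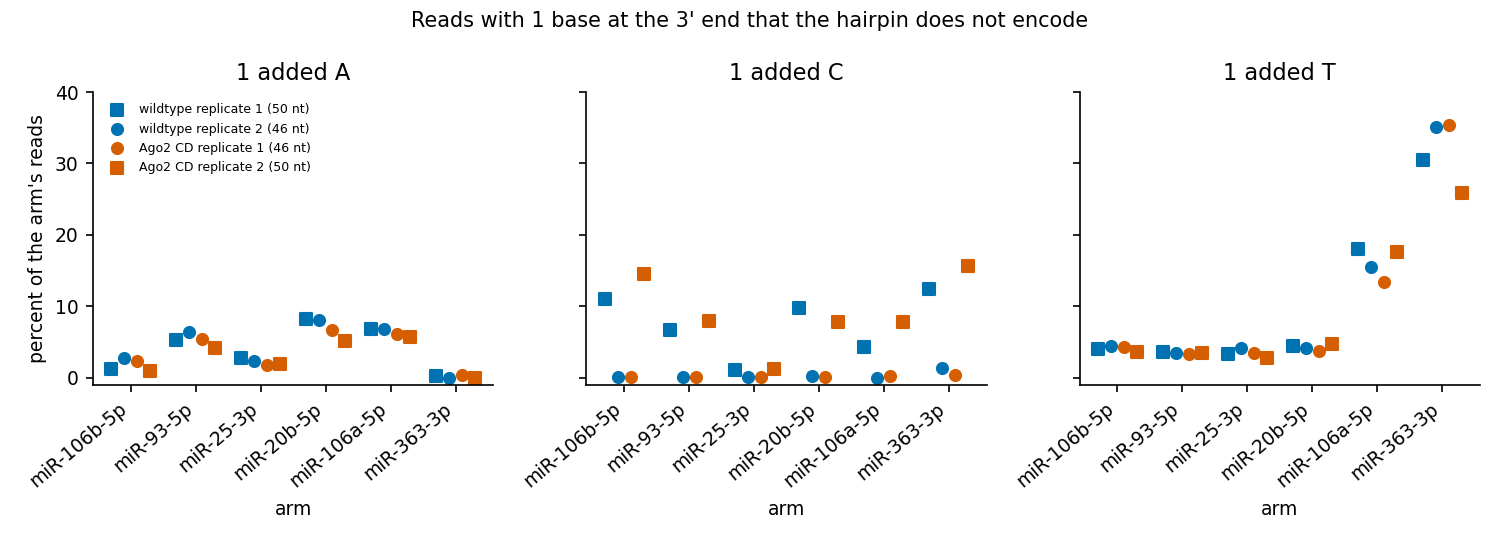
Percent of each arm's reads that end in 1 added A, C or T, with 1 point per library (blue for wildtype, orange for Ago2 CD, squares for 50 nt and circles for 46 nt libraries). Added C is near 0 in the circles and reaches 15.6% in the squares, and added T lies between 25.8% and 35.3% for miR-363-3p and under 5% for the 4 arms on the left.

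The arms whose levels across the 4 libraries were most like those of the top arm of each cluster were sought among 367 arms with a mean of at least 10 CPM, by Euclidean distance between centred log2 CPM values. The top arm was that with the highest mean CPM, which for the X-linked cluster was miR-363-3p by a narrow margin over miR-20b-5p, whose levels run the opposite way between kinds of library. For miR-25-3p these were miR-409-3p (distance 0.152), miR-92a-3p (0.169) and miR-361-5p (0.237), beside a median distance of 1.27. For miR-363-3p they were miR-335-3p (0.111), miR-22-3p (0.146) and miR-1198-5p (0.156), beside a median of 1.41. All 6 were higher in the 50 nt than in the 46 nt libraries, as were miR-25-3p and miR-363-3p themselves.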

How the data were processed

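Per the labels' protocols, total RNA of frozen fetal livers was extracted with Trizol and libraries were made with a TruSeq small RNA kit under a modified procedure. The deposited values are raw counts, 1 per distinct read sequence and library, which were not normalized. The submitters' processing notes name cutadapt. Its settings, and any aligner or build, are not given in the sources used here.

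Reads were matched without mismatch to 2202 GENCODE vM21 hairpins (GRCm38). Reads of 18 to 27 nt were assigned to the 5p or 3p arm by the hairpin's midpoint. Arms with the same first 18 nt were merged, and reads matching several arms (0.0088% to 0.0293%) were left out. Tails were sought by removing 1 to 3 nt from reads with no match. Reads with an undetermined base (0.183% to 0.256%) were not matched. Of 14 member arms, 13 had a RefSeq mature sequence.

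Arm counts were tested with edgeR 4.0.16 (quasi-likelihood, TMM, filterByExpr) in R 4.3.3, and DESeq2 1.42.0 was an alternative. Ratios, tails, lengths and 5′ ends were tested with limma 3.58.1 (pseudocount 0.5), where every library had 20 reads of the hairpin and the minor arm had 10 in all, or where every library had 200 reads of the arm. All tests were two-sided with Benjamini-Hochberg adjustment over all features and a threshold of 0.05. Standard errors of edgeR are the log2 fold change over the square root of F. Within-pair values are log2 CPM differences with a prior count of 2. Clopper-Pearson intervals and limits from 3 counts cover counting error only. Python 3.11.15, SciPy 1.17.1 and matplotlib 3.10.9 were used, and the tests were tried on simulated data first.

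The text names all arms of the 7 hairpins, own reads of Mir19b-2 and Mir92-2, the chromosome 14 list and the 3 closest profiles. Members, lists and tests were chosen with earlier results of these data known. Same-numbered libraries deviated from their group means in opposite directions (correlation -0.720 over 584 arms), so the numbers do not pair them. The longest read in the file pairs replicate 1 of one genotype with replicate 2 of the other.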

Additional observations from a re-analysis of the deposited data

How the results depend on the processing

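With 2 libraries per genotype and 2 kinds of library within each, differences of the size seen between kinds cannot be separated from spread in the comparison of genotypes, and the rare arms of the X-linked cluster are limited by counts of 0 to 732 reads. No member arm or hairpin was called between genotypes in any test under any alternative run.

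TMM factors held the median log2 fold change of all arms at 0.04. With reads on arms as the library size it rose to 0.74, and with all reads of at least 18 nt to 0.57. Members moved with it: miR-106b-3p then stood at 0.58 and 0.40, miR-93-3p at 0.33 and 0.16, miR-25-5p at 0.37 and 0.20, and miR-20b-3p at 0.44 and 0.20, against -0.17, -0.41, -0.37 and -0.10 with TMM. Without miR-451a and miR-486 in the TMM step, miR-106b-5p was at -0.0194. The DESeq2 test put miR-20b-3p at 0.00114. With tailed reads added, the arm ratio of Mir18b turned to -0.40 and the length difference of miR-106b-3p to -0.0718 nt. The value of Mir18b then includes the miR-18b-5p tails that were set aside above. Counted as the share of 23 nt or longer, miR-93-5p and miR-25-3p had log2 changes of 0.00455 and 0.12. With 1 nt tails other than C and longest read as a term, the tail change of miR-106b-5p was -0.16.

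A replicate block on the shared numbers called no member either, and it moved miR-20b-3p to 0.70. Crossing the numbers by longest read raised the count of called arms from 2 to 10 of 584, none of them members. Over all arms, the DESeq2 test called 6, dropping the filter gave 11 of 1470, and leaving out a library gave 0 to 4. With longest read as a term, 2 of 277 tailed shares and 1 of 254 off-start shares were called, against 0 without it. A replicate block, the share of 23 nt or longer, or leaving out a library took the 1 call for length to 0, and leaving out either Ago2 CD library took the 2 calls for the arm ratio to 0. No member was among any of these.

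Leaving out each library in turn left 1 library in an arm, assumed to vary like the others. The log2 ratio of the clusters then differed by -0.32 to 0.27 between genotypes. Levels ranged from -0.0615 to 0.17 for miR-106b-5p, -0.50 to 0.15 for miR-106b-3p, -0.21 to 0.62 for miR-93-5p, -0.51 to 0.85 for miR-25-3p, -0.33 to 0.71 for miR-106a-5p, -0.26 to 0.94 for miR-18b-5p, -0.40 to 0.85 for miR-20b-5p, -0.94 to 6.43 for miR-20b-3p and -0.37 to 1.17 for miR-363-3p. The level of miR-93-3p ranged from -0.67 to -0.16 and that of miR-25-5p from -0.63 to -0.0989. Arm ratios ranged from 0.20 to 0.98 for Mir25, -0.64 to 0.20 for Mir106b, -1.19 to 0.00925 for Mir93, -0.46 to 0.99 for Mir18b, -0.50 to 2.73 for Mir20b and -0.76 to 1.02 for Mir363. Tailed shares ranged from -0.59 to 0.18 for miR-106b-3p, -0.66 to 0.77 for miR-106b-5p, -0.27 to 0.00141 for miR-363-3p and -0.58 to 0.31 for miR-93-5p. Those of miR-93-3p and miR-25-3p ranged from -0.83 to -0.43 and from -0.35 to -0.30. Off-start shares ranged from 0.0674 to 0.27 for miR-106b-5p, -0.20 to 0.65 for miR-106b-3p, -1.25 to 1.94 for miR-25-3p and -0.59 to 0.75 for miR-93-5p. Length differences ranged from -0.0401 to 0.0770 nt for miR-106b-3p, -0.16 to 0.0782 nt for miR-25-3p and -0.13 to 0.0943 nt for miR-93-5p. The cause was not tested.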
